A study of Homo sapiens with 6 samples.

Results

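Glycolysis splits glucose into pyruvate in the cytosol, and lactate dehydrogenase then turns pyruvate into lactate. The set described here holds 10 genes named by symbol: the bifunctional regulators PFKFB2, PFKFB3 and PFKFB4, the hexokinases HK1 and HK2, and the enzymes ALDOA, TPI1, PGK1, ENO1 and LDHA. All probes that the platform annotation gives one of these symbols were taken, which came to 22 of 48803 probes and 10 of 18665 genes with a probe. Hexokinases trap glucose in the cell as glucose phosphate. The PFKFB proteins make and break a sugar bisphosphate that activates phosphofructokinase, the main control point of the pathway. Proliferating cell lines such as this one are known for a high flux from glucose to lactate.

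All samples were HEK293T, a cell line from human embryonic kidney in which the SV40 large T antigen is expressed. Total RNA was hybridised on 6 Illumina BeadChip arrays of 1 slide. Control cells gave 3 of them, and cells given 4 µg of plasmid with cloned hsa-miR-128, in a well of a multiwell plate, gave the other 3. The series' design text describes the arrays as biological triplicates, and the numbers 1 to 3 used here only name them in deposit order. Controls lay on sections A to C of the slide and transfected cells on sections D to F, so place on the slide and treatment cannot be told apart. The plasmid given to the control cells, if any, the time after transfection and the share of cells that took up the plasmid are not given in the sources used here.

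Which hairpin was cloned is also not given, so the mature products of both human miR-128 hairpins are shown, as the transfected agent. They were read from RefSeq on GRCh38.p14, where MIR128-1 gives its 3p arm from chr2:135665446-135665466 and MIR128-2 gives the same sequence from chr3:35744527-35744547, both on the plus strand. The 5p arms lie at chr2:135665411-135665433 and chr3:35744490-35744512. Capitals mark the seed, bases 2 to 8, through which a microRNA pairs with its target messenger RNAs.
hsa-miR-128-3p: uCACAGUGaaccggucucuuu
hsa-miR-128-1-5p: cGGGGCCGuagcacugucugaga
hsa-miR-128-2-5p: gGGGGCCGauacacuguacgaga
The 3p arm is the one usually meant by miR-128, and both 5p arms share a different seed, GGGGCCG. No sequence of the messenger RNAs' untranslated regions was used here, so matches of these seeds in the glycolytic transcripts were not examined.

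Mean signal per array ran from 408 to 660, detected probes (detection p under 0.01) from 12995 to 14345, and mean beads per probe from 36.3 to 38.1. Over genes, arrays of the same group correlated at 0.950 to 0.993 and arrays of different groups at 0.930 to 0.979. On the first principal component transfected array 3 (-0.92) stood between the controls (-32.02 to -13.66) and transfected arrays 1 and 2 (40.65 and 28.56). Of 6 marker genes of the cell line, 5 were detected on all arrays and PAX2, a kidney developmental factor, on none. The summed linear intensity of the 5 was 19835 to 21654 in controls and 14100 to 21439 in transfected cells. Of 9 markers of other cell types, 6 were detected on no array, the monocyte gene CD14 on 1, and the collagens COL1A1 and COL3A1 on all 6. For these 2 collagens the sum was 445 to 664 in controls and 254 to 541 in transfected cells. The part of either sum in the results below was not tested.

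Of the 10 genes, 9 were detected on all 6 arrays by at least 1 probe and were tested, and PFKFB2 was not detected often enough. Values are normalized log2 intensities, which can be compared between arrays for a probe but not between genes, since probes differ in brightness. No member passed the limma test across all genes at a Benjamini-Hochberg adjusted p under 0.05, at which 0% of the 9797 genes passed. PFKFB4 and HK1, 2 of the 9, had an unadjusted p under 0.05, which 28.6% of all genes had. In 3 of the 9, PFKFB4, HK1 and ALDOA, the 3 transfected arrays lay wholly below the 3 controls, as in 18.1% of all genes. They lay wholly above in no member and in 14.7% of all genes, so that in either direction the groups did not overlap in 32.8% of all genes. The log2 difference, transfected minus control, was negative in 7 members and positive in HK2 and LDHA, with a median of -0.25, against -0.03 over all genes. When the arrays were instead scaled to equal medians, 8 were negative and LDHA was among them, but the median of all genes then stood at -0.33, and 7 members were below it and 2 above it, as in the main processing.

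**Figure D1:**
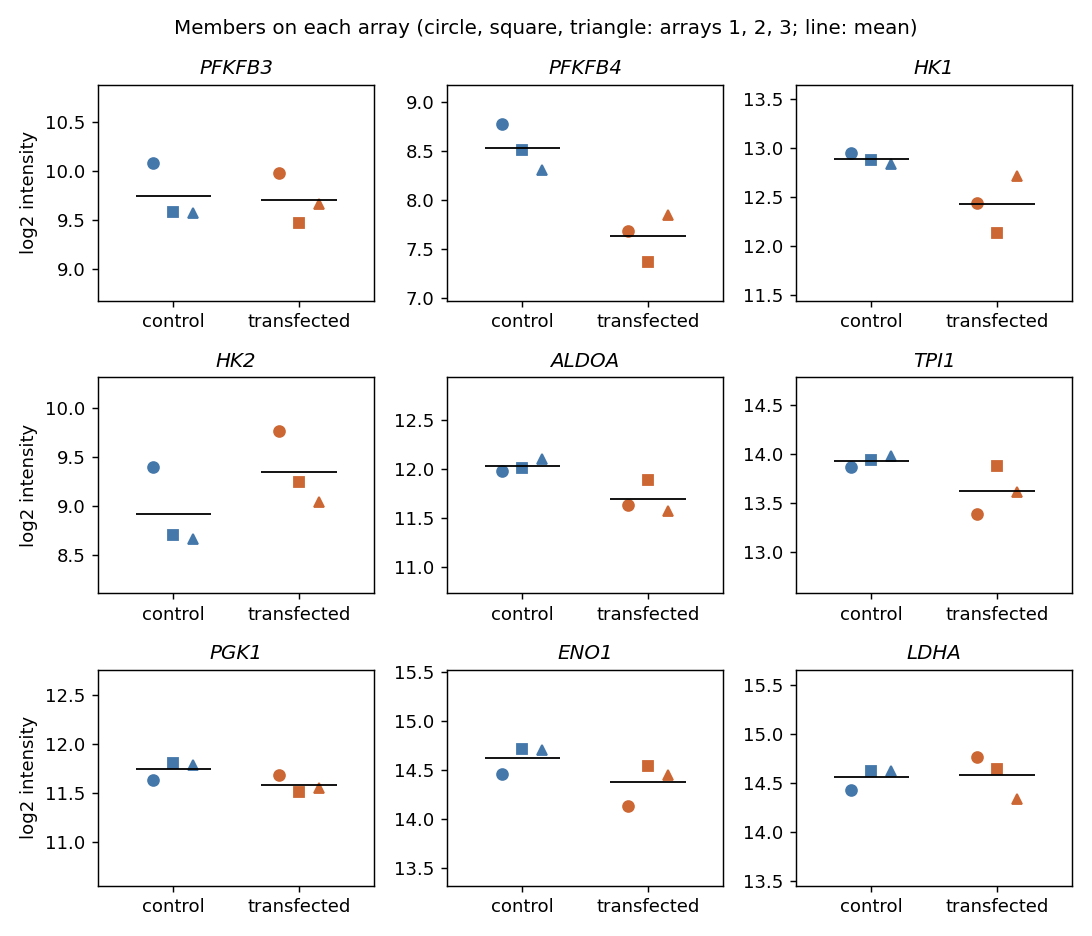
Normalized log2 intensity (vertical axes, each spanning the same range) of the 9 tested members on the 3 control arrays (blue) and the 3 transfected arrays (orange). Circles, squares and triangles are arrays 1, 2 and 3 of a group and lines are group means. PFKFB4, HK1 and ALDOA have no overlap between groups, while PFKFB3 and HK2 are highest, within each group, on array 1.

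The PFKFB regulators differed from each other. PFKFB4, an isoform first described in testis and known to be induced by hypoxia, had the largest difference of the set. Its log2 intensities were 8.77, 8.51 and 8.30 on controls 1 to 3 and 7.68, 7.37 and 7.85 on transfected arrays 1 to 3. All 3 transfected arrays lay below all 3 controls, and the gap between the groups, from 8.30 to 7.85, was about as wide as the range within each of them. PFKFB4 was 1.86-fold lower in transfected cells (log2 difference -0.89 ± 0.21 SE, 95% interval -1.36 to -0.43, n = 3 per group), with an unadjusted limma p of 0.00208. Its adjusted p of 0.0585 missed the threshold. On the scanner's own scale, before any normalization, its signal was 685, 447 and 488 in controls and 236, 280 and 393 in transfected cells. The groups did not overlap there, but neither did those of LDHA (29309, 24128 and 30140 against 21451, 22338 and 22311). Mean signal per array was also higher on average in controls (660.1, 513.3 and 626.2) than in transfected cells (407.8, 512.5 and 590.6). Here the groups overlapped, with transfected array 3 above control 2. That scale is therefore no separate check on PFKFB4. Each array averages over all cells of a well, so fewer cells with the transcript and less transcript per cell cannot be told apart.

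PFKFB4 has a single probe on the array, so no second probe checks its difference. It was negative under all 18 alternatives and passed the threshold under 6 of them, among them the fit without transfected array 3 (log2 difference -1.003, adjusted p = 0.0336). Over all alternatives its adjusted p ran from 0.000961 to 0.247, the highest being without control 2.

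PFKFB3, an isoform whose kinase activity far outweighs its phosphatase activity and which is common in proliferating cells, showed no such gap. Its brighter probe read 10.08, 9.58 and 9.57 in controls and 9.97, 9.47 and 9.66 in transfected cells. The first array of each group was the highest, and the groups overlapped. The log2 difference was -0.05 ± 0.22 (95% interval -0.54 to 0.45, adjusted p = 0.906), an interval that reaches to both sides of 0. Its second probe read 7.05, 7.30 and 7.06 against 7.33, 7.33 and 6.96, a log2 difference of 0.07 ± 0.19. The 2 probes thus had opposite signs, each within its error, and the sign for the gene was also positive without control 1 (0.12) and without transfected array 2 (0.071).

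PFKFB2, the isoform best known from heart and a target of insulin and AMP kinase signalling, was close to background. Of its 3 probes, 2 were detected on no array and the other on 1 array, transfected array 3. The scanner signal of that probe was 158, 151 and 184 in controls and 151, 174 and 189 in transfected cells. The lowest normalized log2 intensity among detected probes was 5.82 to 6.19 per array, and the highest value of any PFKFB2 probe was 5.99. No difference could be shown at this brightness, and no fold change is given.

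The hexokinases lay on opposite sides of 0. HK1, the form found in most tissues and bound to the outer mitochondrial membrane, read 12.96, 12.88 and 12.84 in controls and 12.44, 12.14 and 12.72 in transfected cells. The controls were close together (SD 0.06) and the transfected arrays were spread below them (SD 0.29), with transfected array 3 nearest to the controls. HK1 was 1.38-fold lower (log2 difference -0.46 ± 0.19 SE, 95% interval -0.91 to -0.02, adjusted p = 0.163). Its 3 other probes were detected on no array, so the value rests on 1 probe. Without transfected array 2 the log2 difference was -0.32.

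HK2, the insulin-responsive form of muscle and of many tumour lines, read 9.40, 8.71 and 8.66 in controls and 9.77, 9.25 and 9.05 in transfected cells on its brighter probe. Control 1 stood above transfected arrays 2 and 3, so the groups overlapped. The log2 difference was 0.43 ± 0.27 (95% interval -0.18 to 1.05, adjusted p = 0.314). The second HK2 probe read 7.24, 7.13 and 6.79 against 7.95, 7.51 and 7.27. On this probe all transfected arrays lay above all controls, by 0.53 ± 0.23 on average, and the adjusted p in the fit of each probe was 0.190. The gene's log2 difference was 0.67 without control 1 and 0.23 without transfected array 1, and it stayed positive under all 19 alternative values. With arrays scaled to equal medians it was 0.13, which is 0.46 above the median gene.

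**Figure D2:**
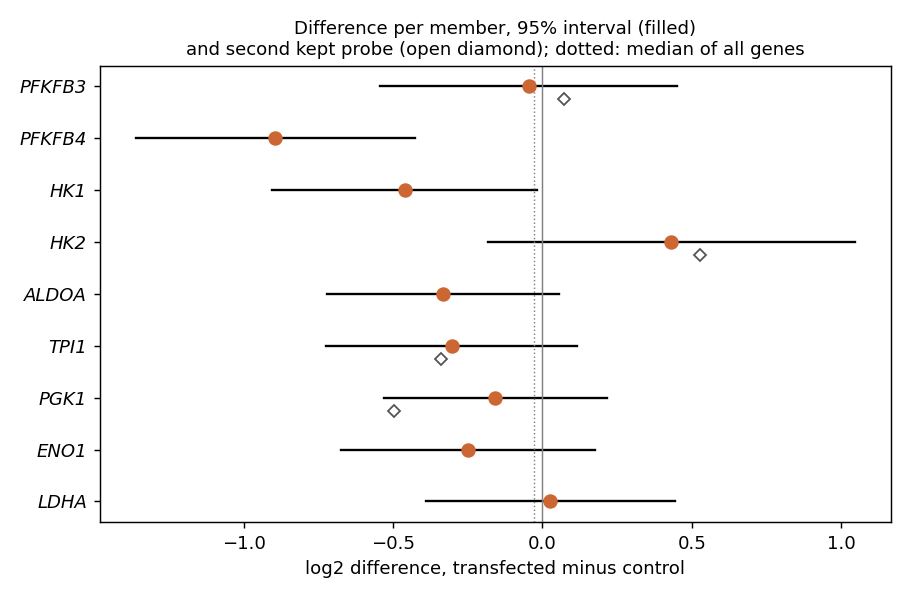
Log2 difference, transfected minus control (horizontal axis), of the 9 tested members. Filled points and bars are the difference and 95% interval of the probe used for each gene, open diamonds the second kept probe of 4 genes, and the dotted line the median of all 9797 genes. The intervals of PFKFB4 and HK1 lie below 0 before adjustment over genes, and those of the other 7 members include it.

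Aldolase, which splits the six-carbon sugar, and triose phosphate isomerase, which interconverts the products, had small negative differences. ALDOA read 11.98, 12.01 and 12.10 in controls and 11.64, 11.89 and 11.57 in transfected cells. The groups did not overlap, with control 1 and transfected array 2 lying close together. The log2 difference was -0.33 ± 0.17 (95% interval -0.72 to 0.06, adjusted p = 0.233), and 3 further ALDOA probes were detected on no array. TPI1 read 13.86, 13.94 and 13.97 against 13.38, 13.87 and 13.61. Transfected array 2 lay within the controls, and the log2 difference was -0.30 ± 0.18 (95% interval -0.72 to 0.12, adjusted p = 0.300), and -0.19 without transfected array 1.

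The second TPI1 probe behaved differently among arrays. It read 11.30, 12.03 and 12.06 in controls and 10.19, 11.87 and 12.31 in transfected cells. Control 1 and, further still, transfected array 1 were low, and transfected array 3 was the highest of all 6. Its log2 difference of -0.34 ± 0.51 was close to that of the brighter probe but had the larger error.

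PGK1, the kinase that makes the first ATP of the pathway, read 11.64, 11.80 and 11.78 in controls and 11.69, 11.51 and 11.55 in transfected cells on its brighter probe. Transfected array 1 lay above control 1, and the log2 difference was -0.16 ± 0.16 (95% interval -0.53 to 0.21, adjusted p = 0.537). The second probe read 11.24, 11.38 and 11.31 against 10.21, 10.89 and 11.33. Here transfected arrays 1 and 2 were below all controls and transfected array 3 was among them, for a log2 difference of -0.50 ± 0.28. The choice of probe moved the PGK1 log2 difference from -0.16 to -0.50, without moving it past the threshold (adjusted p = 0.282 for the second probe).

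ENO1, the main enolase of non-neuronal tissue, read 14.46, 14.71 and 14.71 in controls and 14.13, 14.55 and 14.45 in transfected cells. Control 1 lay below transfected array 2 and just above transfected array 3. The log2 difference was -0.25 ± 0.19 (95% interval -0.68 to 0.17, adjusted p = 0.391), and -0.13 without transfected array 1. LDHA, the lactate dehydrogenase subunit of muscle and of glycolytic tumours, read 14.42, 14.62 and 14.62 against 14.76, 14.64 and 14.34. The transfected arrays spanned the controls on both sides, and the log2 difference of 0.03 ± 0.18 had a 95% interval of -0.39 to 0.44 (adjusted p = 0.934). ALDOA, TPI1, PGK1, ENO1 and LDHA have near-identical copies elsewhere in the genome, many of them processed pseudogenes, and what their probes may take up from such copies was not tested.

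The rest of the pathway was read from lists of enzymes and transporters. Of 27 other glycolytic enzymes, 16 were tested, 11 with a negative and 5 with a positive log2 difference (median -0.21). None had an adjusted p under the threshold. An unadjusted p under 0.05 was found for 7 of the 16, 6 of them lower and LDHB higher. Over all genes 16.1% were lower and 12.5% higher at that level. In the upper pathway the median was -0.42 over 7 enzymes, and in the lower pathway -0.14 over 9. After scaling to equal medians 14 of these 16 were negative, while 11 were below the median gene and 5 above it, as in the main processing.

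Lower values were also measured for other enzymes around the PFKFB step. ALDOC, the aldolase best known from brain, was 1.96-fold lower (log2 difference -0.97 ± 0.20, adjusted p = 0.0519) and passed under 9 of 17 alternatives. It read 10.33, 10.09 and 9.98 in controls and 9.40, 8.87 and 9.23 in transfected cells, with no overlap. PFKL, the liver subunit of phosphofructokinase, the enzyme that the PFKFB product activates, read 7.44, 7.59 and 6.86 against 5.01, 6.47 and 6.41. It was not above background on transfected array 1, and the log2 difference had a 95% interval of -2.23 to -0.43 (adjusted p = 0.0855). With that array raised to the lowest detected intensity, the transfected mean of PFKL was 1.91-fold lower. Without that array its log2 difference was -0.85, and without background correction -0.56. It passed with equal medians and with array quality weights. The muscle subunit PFKM and the platelet subunit PFKP had log2 differences of -0.44 ± 0.16 and -0.17 ± 0.16 (adjusted p = 0.135 and 0.502), and in both the groups did not overlap.

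GPI, the isomerase after hexokinase, had a log2 difference of -0.42 ± 0.18 (adjusted p = 0.174). GAPDH, which makes the first NADH of the pathway, read 13.81, 13.80 and 13.73 in controls and 13.25, 13.08 and 13.42 in transfected cells, a log2 difference of -0.53 ± 0.17 (adjusted p = 0.0983). All 3 kept GAPDH probes had the same sign. The gene passed with a variance trend (adjusted p = 0.0440), with array quality weights (0.00234) and without transfected array 3 (0.0477), and missed under the other alternatives. PKM, the pyruvate kinase of most tissues, had -0.52 ± 0.16 (adjusted p = 0.0964), with the same sign on both kept probes. GPI, GAPDH and PKM had no overlap between groups.

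LDHB, the lactate dehydrogenase subunit of heart, went the other way from these. It read 13.82, 13.98 and 13.93 in controls and 14.40, 14.41 and 14.11 in transfected cells, with all transfected arrays above all controls (log2 difference 0.40 ± 0.17, adjusted p = 0.167). With equal medians its difference was 0.005, which is 0.34 above the median gene, against 0.43 above it in the main processing. TIGAR, a phosphatase that opposes the PFKFB kinases, had 0.47 ± 0.33 (adjusted p = 0.360) with overlapping groups, and 0.15 without control 1 or 0.75 without transfected array 1. PGAM1, the phosphoglycerate mutase, varied more between arrays than the probe used for any member: it read 7.64, 8.70 and 8.74 in controls and 7.36, 8.42 and 9.79 in transfected cells. Array 1 of each group was low, as on the second TPI1 probe, and the log2 difference was 0.17 ± 0.56 (adjusted p = 0.866). Its sign turned without control 1 (-0.19) and without transfected array 3 (-0.47).

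**Figure D3:**
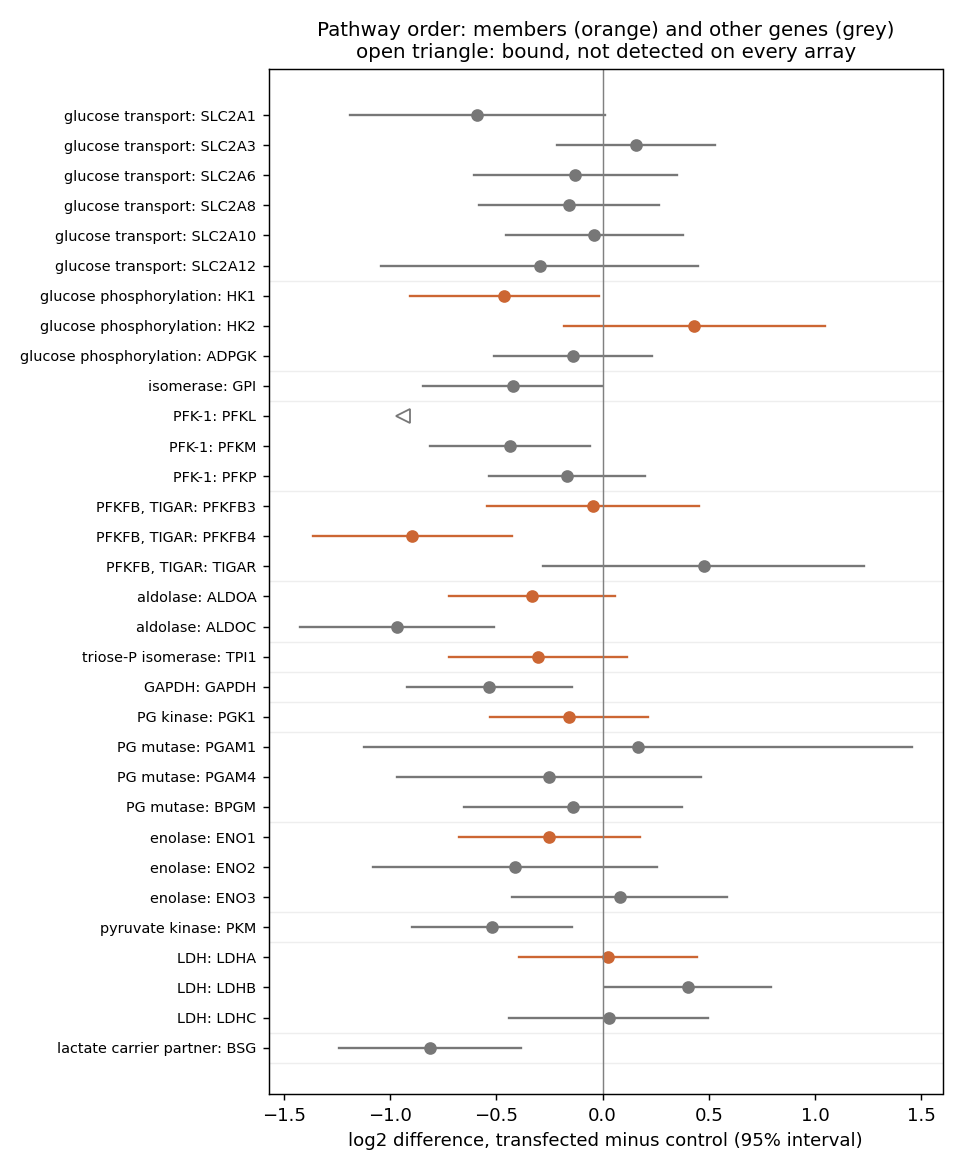
Log2 difference, transfected minus control, with its 95% interval (horizontal axis) for members (orange) and other tested genes (grey), from glucose uptake at the top to lactate at the bottom. PFKL was not detected on every array and is drawn as an open triangle, labelled a bound. The triangle stands at 1.91-fold lower, with the undetected array raised to the lowest detected intensity. Most points lie to the left of 0, among them ALDOC (-0.97) and PFKFB4 (-0.89), with LDHB (0.40), HK2 (0.43) and TIGAR (0.47) on the right.

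Transport of glucose and lactate was read from 14 genes, of which 7 were tested, 6 of them with a negative difference (median -0.16). An unadjusted p under 0.05 was found for 1 of the 7, BSG, and for 28.6% of all genes. SLC2A1, the glucose transporter GLUT1, read 8.64, 8.91 and 8.73 in controls and 7.84, 7.91 and 8.77 in transfected cells. Transfected arrays 1 and 2 were below all controls and transfected array 3 was not, for a log2 difference of -0.59 ± 0.26 (adjusted p = 0.182, and 0.0322 without transfected array 3). SLC2A3, the transporter GLUT3, had 0.16 ± 0.16 (adjusted p = 0.534) and no overlap between groups. With equal medians it was -0.22, which is 0.11 above the median gene, against 0.19 above it in the main processing. BSG, the glycoprotein basigin that brings lactate carriers to the membrane, was 1.75-fold lower (-0.81 ± 0.19, adjusted p = 0.0589), with no overlap between groups. Like PFKFB4, it passed under 6 alternatives.

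Promoter sequences of the members were compared with those of all genes. The choice of members did not read the sequences, but it was made by pathway, so it may not be independent of them. RefSeq on GRCh38.p14 gave 21 promoters for 9 of the 10 genes, some overlapping one another, and the 250 bases before each start were searched on both strands for ACGTG, a core that hypoxia-inducible factors bind. This core also lies inside CACGTG, the E-box of MYC and carbohydrate response factors. ACGTG was found for 6 of the 9 genes, and for 21.7% of the 27305 genes in the same table. Those 27305 genes, detected here or not, had 35116 promoters, so more windows per gene were searched for the members. By promoters it was 9 of 21, or 42.9%, against 18.5% of all, and CACGTG was found in 19% of the members' promoters and 6.34% of all. These matches are a description of the sequence and not bound sites. Matches close to either end of the searched bases were left aside, and of the rest the one nearest to a start is shown for each gene. It stands within a 30-base window, in the direction of the gene, with ACGTG or its reverse complement CACGT in capitals. In PFKFB3 and ALDOA a c comes before the capitals, so the match shown there is part of CACGTG. All 6 genes lie on the plus strand.
PFKFB3, chr10:6202813-6202842: accctcctccccACGTGgaagggggctggg
HK2, chr2:74834067-74834096: aatgggcgtgcgCACGTcactgatccggag
PGK1, chrX:78104053-78104082: aaacggaagccgCACGTctcactagtaccc
ALDOA, chr16:30064374-30064403: ggcagggaggccACGTGatccgagtcccct
LDHA, chr11:18394478-18394507: cgtgggttcccgCACGTccgccggcccccc
TPI1, chr12:6868075-6868104: ccgtgcgccgccgCACGTagccccagactc
The log2 differences of these 6 genes ran from -0.33 in ALDOA to 0.43 in HK2. PFKFB4, HK1 and ENO1 do not hold these letters in the searched windows, and their differences were -0.89, -0.46 and -0.25. Whether the letters go with the differences was not tested.

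**Figure D4:**
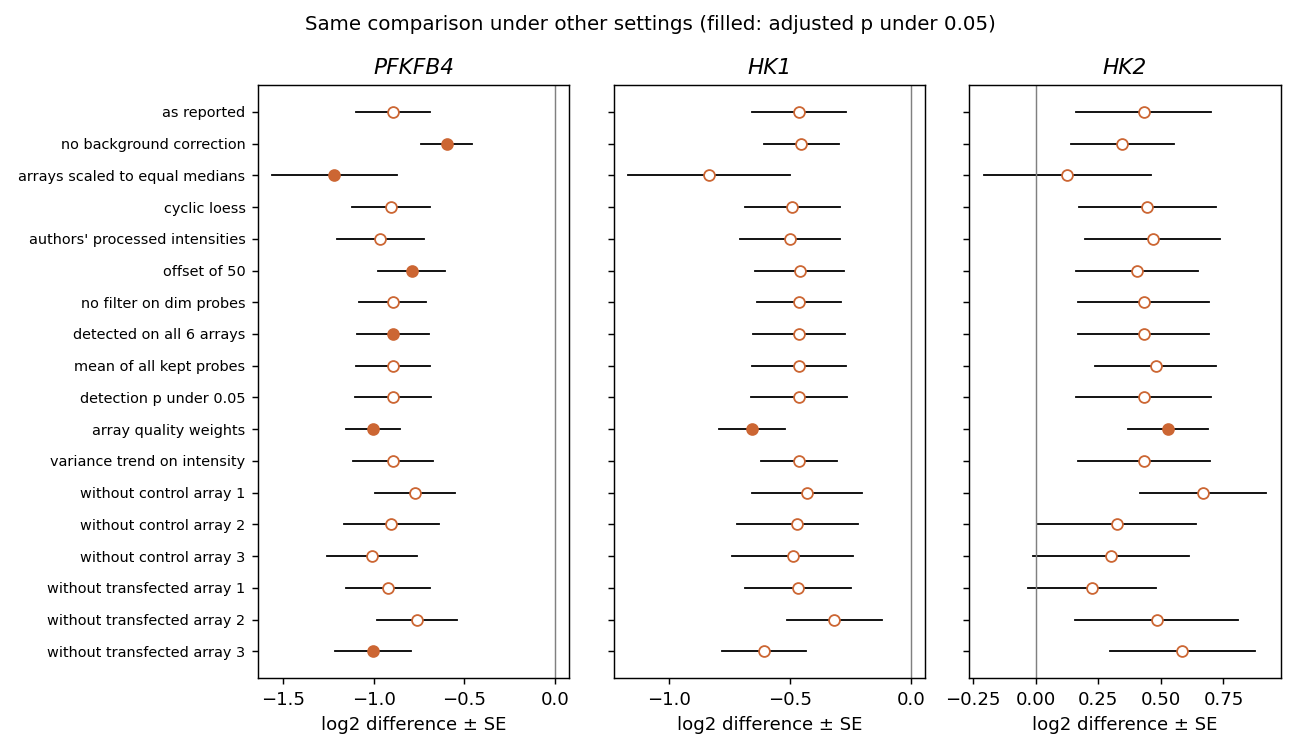
Log2 difference ± SE (horizontal axes) of PFKFB4, HK1 and HK2 as reported and under 17 other settings (rows), filled where the adjusted p is under 0.05. PFKFB4 and HK1 stay below 0 and HK2 above 0 in every row. PFKFB4 is filled in 6 rows, and HK1 and HK2 in 1 each, with array quality weights, under which 5003 of all 9797 genes passed.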

How the data were processed

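Per the file headers, the deposited non-normalized table gives for each probe and array a mean signal intensity, a count of beads, a standard error of the signal and a p-value for detection. The submitters' processing notes name BeadStudio but give no version. The second table holds the authors' processed intensities, a scaled and background-subtracted form of the same arrays, used as an alternative. Its normalization has no name in the sources used here. Every sample column was used (0 left out).

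Background was estimated from the detection p and removed, 16 was added, and log2 values were quantile normalized, as in neqc of limma 3.58.1 (R 4.3.3). A probe listed in a pair of rows was averaged. Probes had to be detected (p under 0.01) on 3 or more arrays, which left 14200 of 48803, 12101 of them with 1 gene. Names came from the platform annotation, updated to RefSeq symbols. The brightest kept probe stood for a gene, giving 9797 genes. Groups of 3 arrays were compared with lmFit and eBayes, two-sided, with Benjamini-Hochberg adjustment over all 9797 genes at 0.05. Errors of differences are moderated standard errors. The few arrays limit the precision.

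The alternatives were other background corrections, normalizations, offsets, filters, probe rules and variance models, and leaving out each array. In simulated data with these genes' spread and independent noise, 200 of 9797 genes were changed. There the test called 0%, 38%, 84% and 98% of genes changed by 0.5, 1, 2 and 3 on the log2 scale, with 6 false calls. In the measured data 28.6% of genes had an unadjusted limma p under 0.05 and 0% passed, so these shares may not hold there. Genes named were all 10 members, 9 pathway enzymes and transporters whatever their values, and per list the gene with the smallest p in each direction. HIF1A, EPAS1, PDK1, PDK3 and PDK4 were named besides, to describe what their lists hold. Members and lists were chosen with earlier results of these data known. Lists are therefore described by counts and medians, with no set test.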

Additional observations from a re-analysis of the deposited data

How the results depend on the processing

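The number of genes past the threshold was 0 as reported. It was 459 without background correction, 373 with arrays scaled to equal medians, 273 with cyclic loess, 394 with an offset of 50, 340 among genes detected on all 6 arrays, 353 with a variance trend and 5003 with array quality weights. It was 1 with the authors' processed intensities and 1 when each kept probe was fitted on its own, and 0 to 1554 with 1 array left out (515 and 1554 when it was transfected array 1 or 3, and 12 when it was control 1). PFKFB4 passed without background correction (log2 difference -0.60, adjusted p = 0.0493), with equal medians (-1.22, 0.0458), with an offset of 50 (-0.79, 0.0485), among genes detected on all arrays (-0.89, 0.0465) and with array quality weights (-1.003, 0.000961). With 1 array left out it lay between -1.01 and -0.76 and passed without transfected array 3. HK1 (-0.66, adjusted p = 0.00362) and HK2 (0.53, 0.0201) passed with array quality weights. The sign of PFKFB3 turned with the mean of its probes (0.013) and on its second probe (0.072), and it lay between -0.18 and 0.12 with 1 array left out. LDHA was -0.31 with equal medians and lay between -0.065 and 0.15 with 1 array left out. The median over the members was -0.60 with equal medians, where that of all genes was -0.33. PGK1, ALDOA, ENO1 and TPI1 kept their sign and missed the threshold under every alternative run, although ENO1 and TPI1 moved to -0.13 and -0.19 without transfected array 1. The causes of these shifts were not tested. No paired analysis was possible because the labels number no replicates, and numbers given in deposit order pair no arrays.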

Other observations

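Branches that leave or feed glycolysis were read from further lists, and no gene of them passed over all genes. The counts of an unadjusted p under 0.05 below stand beside 28.6% of all genes. Of 6 tested genes of the pentose phosphate pathway, which makes NADPH and ribose from glucose phosphate, 4 had a negative log2 difference and 3 an unadjusted p under 0.05. PGLS, its lactonase, read 9.94, 9.76 and 9.72 in controls and 8.59, 8.68 and 9.16 in transfected cells, a 2.00-fold lower value (log2 difference -0.996 ± 0.20, adjusted p = 0.0504), and it passed under 9 of 17 alternatives. RPE, the epimerase of the same pathway, was 1.84-fold higher (0.88 ± 0.21, adjusted p = 0.0609), and it passed under 5 of them. Of 13 genes of pyruvate entry into mitochondria, 10 had a positive difference (median 0.17) and 2 an unadjusted p under 0.05. DLD, a subunit of pyruvate dehydrogenase, had 0.51 ± 0.20 (adjusted p = 0.143). PDK2, a kinase that inhibits that enzyme, was detected on no transfected array (adjusted p = 0.0670). With those arrays raised to the lowest detected intensity, its transfected mean was 1.28-fold lower. The other kinases of this family, PDK1, PDK3 and PDK4, were among the 10 with a positive difference, with overlapping groups. PDK3 had 0.11 ± 0.21 (adjusted p = 0.746), with the opposite sign on 1 of its 2 kept probes, and PDK4 had 0.60 ± 0.36 (adjusted p = 0.292). PDK1 was detected on only 1 control and 2 transfected arrays (adjusted p = 0.245). After scaling arrays to equal medians, 6 of these 13 were positive and 9 lay above the median gene. All 3 tested genes of gluconeogenesis had negative differences, among them pyruvate carboxylase, PC (-0.66 ± 0.17, adjusted p = 0.0713).

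A further list held genes outside glycolysis that encode, respond to or act on hypoxia-inducible factors. Of its 15 tested genes, 11 had a positive difference and 4 a negative one (median 0.14). Among the 11 were the factors HIF1A (0.73 ± 0.26, adjusted p = 0.124) and EPAS1 (0.02 ± 0.21, adjusted p = 0.947). In HIF1A all transfected arrays lay above all controls. An unadjusted p under 0.05 was found for 3 of the 15, HIF1A and KDM3A among them, and for 28.6% of all genes. After the same scaling 5 of these 15 were positive and 11 lay above the median gene as before. KDM3A, a histone demethylase, had 0.80 ± 0.24 (adjusted p = 0.0846). EGLN1, the prolyl hydroxylase that marks the factors for decay, was detected on 1 transfected array of 3, and its groups overlapped. Its log2 difference was -0.50 ± 0.23 (95% interval -1.03 to 0.04, adjusted p = 0.200). With undetected arrays raised to the lowest detected intensity, its transfected mean was 1.26-fold lower. Of 8 genes of AMP kinase and insulin signalling, 6 had a positive difference (3 with equal medians, where 6 lay above the median gene), and 2 an unadjusted p under 0.05. AKT1, a kinase that acts on PFKFB2, read 11.80, 11.67 and 11.60 in controls and 11.02, 10.59 and 10.87 in transfected cells (-0.86 ± 0.18, adjusted p = 0.0528). AKT1 passed under several alternatives that kept all arrays, such as equal medians (adjusted p = 0.0401) and a variance trend (0.0417). It missed under others, such as the authors' processed intensities (0.0777) and the fit without control 2 (0.247). PRKAA2, a catalytic subunit of AMP kinase, had 0.63 ± 0.19 (adjusted p = 0.0841). Without transfected array 3, KDM3A (adjusted p = 0.0397), EGLN1 (0.0476), PRKAA2 (0.0402), PC (0.0429), PDK2 (0.0427) and AKT1 (0.0356) passed, as did 1554 genes in all.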
